A study of Mus musculus with 12 samples.

Results

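The genes described here encode the MHC class II presentation machinery of the mouse, followed in tumors of 8 host strains. They are the classical chains H2-Aa, H2-Ab1 and H2-Eb1, the invariant chain Cd74, the H2-DM chains H2-DMa, H2-DMb1 and H2-DMb2, the H2-O chains H2-Oa and H2-Ob, and the transactivator Ciita. They were taken by symbol from the gene list of a single-cell RNA-seq count table, and all 10 were found among its 27457 genes.

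MHC class II molecules are dimers of an alpha and a beta chain that carry peptides of endocytosed proteins to the cell surface, where CD4+ T cells read them. The invariant chain escorts new dimers to the endosome, H2-DM exchanges the remnant of the invariant chain for antigen peptides, and H2-O restrains H2-DM. Ciita switches the family on through a protein complex bound at the X and Y boxes of the promoters. Dendritic cells and B cells make class II at all times, whereas macrophages raise it when IFN-γ induces Ciita. In C57BL/6J mice the partner chain H2-Ea is inactive, so that H2-Eb1 is transcribed there without I-E reaching the surface.

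Tumors were grown from MC38, a colon carcinoma line of C57BL/6J origin, placed under the skin of female mice aged between 8 and 12 weeks. Hosts were C57BL/6J (B6) or F1 mice of C57BL/6J with CC001/UncJ, CC002/UncJ, CC007/UncJ, CC036/UncJ, CC075/UncJ, CC079/TauUncJ or CC080/TauUncJ, inbred lines of the Collaborative Cross (CC). Every F1 host therefore carried a B6 haplotype of the H2 region beside that of its CC parent. At 75 to 110 mm3 each mouse received 200 µg of isotype control antibody (2A3) or of anti-PD-1 antibody (aPD1, 29F.1A12), and after 48 h the tumor was taken and sorted to 90% CD45+ and 10% CD45- cells. The study calls CC001, CC002 and CC075 F1 hosts responders and CC036, CC079 and CC080 F1 hosts non-responders, from tumor growth in an earlier screen. B6 and CC007 F1 hosts were given no class here. There were 10 responder, 9 non-responder and 5 unclassed tumors under each treatment.

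The count table held 93126 cells in 12 libraries of 4 tumors each, 48 tumors in all, and the authors' 27 clusters. A tumor gave between 53 and 3082 cells and between 88816 and 17713491 unique molecular identifiers (UMIs), which stand for captured mRNA molecules. The tumor with the fewest cells, a CC007 aPD1 tumor of pool 6, gave 30 macrophages, and H2-DMb2, H2-Oa and H2-Ob were at 0 in it. In all, 10176 cells (10.9%) carried a barcode that also occurred in another library, and 1 animal identifier stood on 2 CC080 tumors. No hashtag served both treatments, so that hashtag and treatment cannot be told apart. Levels are UMIs of a gene per 1000000 UMIs (CPM) of the same cells. Reads were aligned to the B6 genome while the CC haplotypes of the H2 region can differ from it, so that a lower level and a poorer match to the reference cannot be told apart for the chromosome 17 genes. Cd74 (chromosome 18) and Ciita (chromosome 16) lie outside that region, but CC haplotypes can differ from B6 there too. How well reads of either gene matched the reference was not tested.

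On the GRCm38 build, by the GENCODE annotation, 8 of the 10 genes lie on chromosome 17 between 34092340 and 34316674, a stretch of 224.3 kb. Their order is H2-Oa (34092340 to 34095234), H2-DMa (34119541 to 34139101), H2-DMb2 (34143307 to 34151555), H2-DMb1 (34153072 to 34160230), H2-Ob (34238903 to 34254414), H2-Ab1 (34257689 to 34269419), H2-Aa (34282744 to 34287823) and H2-Eb1 (34305867 to 34316674). H2-Aa is on the minus strand and the other 7 are on the plus strand. Ciita lies on chromosome 16 (10480059 to 10528418). All 10 are annotated as protein-coding. The H2-DMb1 and H2-DMb2 transcripts matched in 1153 of 1219 aligned bases (94.6%), with an identical run of 221 bases, so that reads may be split between them and each level is uncertain.

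Promoters are shown because Ciita acts on the family through shared promoter boxes. RefSeq promoter entries (GRCm38.p6) matched 7 of the 10 genes. The X box core AGCAAC and the Y box ATTGG were searched on both strands; they do not overlap each other. The Y box was found in 7 of 8 entries, and in 33.8% of 32851 mouse promoters of the same length. The X box core was found in 3 entries, and in 12.2% of all promoters. An X box core followed on the same strand by a Y box after 15 to 40 bases stood in H2-Oa, H2-Ob and H2-Eb1, with 28, 25 and 27 bases between, against 122 of all promoters (0.371%). For 5 of the genes, stretches of 65 bases around the Y box are given 5′ to 3′ on the strand of the gene, with both boxes in capitals.
H2-Oa, chr17:34092291-34092355, plus: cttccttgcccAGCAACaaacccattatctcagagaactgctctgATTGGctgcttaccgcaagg
H2-DMb2, chr17:34145114-34145178, plus: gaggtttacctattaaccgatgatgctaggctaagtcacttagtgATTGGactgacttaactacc
H2-Ob, chr17:34238803-34238867, plus: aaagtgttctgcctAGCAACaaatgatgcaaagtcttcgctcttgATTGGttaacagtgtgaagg
H2-Aa, chr17:34287852-34287916, minus: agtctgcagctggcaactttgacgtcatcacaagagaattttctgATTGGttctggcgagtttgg
H2-Eb1, chr17:34305763-34305827, plus: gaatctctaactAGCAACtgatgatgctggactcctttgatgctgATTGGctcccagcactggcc
The Y box lay 43 bases before the RefSeq start in H2-Oa, 90 in H2-DMb2, 57 in H2-Ob, 48 in H2-Aa and 59 in H2-Eb1. RefSeq starts differ from the gene spans given above: the H2-DMb2 stretch lies within its GENCODE span but outside exons, and 16 bases of the H2-Oa stretch are in an exon. H2-DMb1, whose stretch lies wholly in an exon, and H2-DMa are not printed, with a Y box 61 and 198 bases before the RefSeq start, and a further H2-DMa entry held neither box. These are matches of letters in the reference and not measured binding sites.

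The level of Cd74 separated the cell classes first. Over all tumors it was 19507 CPM in cDC2 (4981 cells), 18918 in cDC1 (1312 cells) and 10831 in migratory DC (1524 cells). It was 9891 CPM in monocyte/macrophages (68059 cells), 5000.3 in pDC, 2513 in granulocytic cells, 979 in fibroblasts and 599 in the 8 clusters named T/NK (10407 cells). Cluster 24 (1614 cells), led by the NK cell receptor genes Ncr1 and Klra8, had 4 of the 10 T/NK markers at 100 CPM or more and was left without a name, so that T/NK values here do not hold it. Its Cd74 was at 143 CPM, and T/NK cells with it were at 544 CPM. Classical DC thus held the most Cd74 per molecule captured, and macrophages, through their number, held 76.9% of all Cd74 UMIs. Because the clusters were built with these genes among others, such differences are a description with no test.

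**Figure D1:**
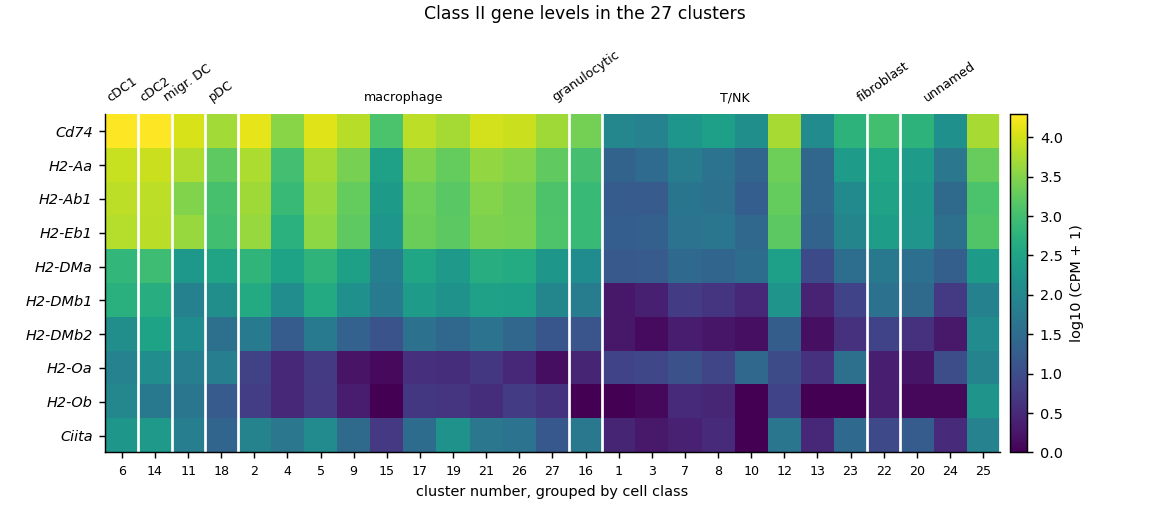
Heat map of log10 (CPM + 1) for the 10 class II genes (rows) in the authors' 27 clusters (columns, grouped by cell class), with UMIs of all tumors summed per cluster. All 10 genes are higher in cDC1 and cDC2 than in every T/NK cluster. H2-Oa and H2-Ob are low in all 10 macrophage clusters, and T/NK cluster 12 stands out from the other T/NK clusters.

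The classical chains followed Cd74. H2-Aa, the I-A alpha chain, was at 8897 CPM in cDC2, 8481 in cDC1, 5923 in migratory DC, 4010.4 in macrophages and 226 in T/NK cells. H2-Ab1, the I-A beta chain, ran from 7289.7 in cDC2 to 190.4 in T/NK cells, and H2-Eb1, the I-E beta chain, from 6999 to 171. Across the 27 clusters the log2 levels of these 3 chains correlated with Cd74 at r of 0.994 (H2-Aa), 0.996 (H2-Ab1) and 0.994 (H2-Eb1), and H2-DMa (0.971), H2-DMb1 (0.973), H2-DMb2 (0.952) and Ciita (0.916) were close behind. The clusters share libraries and differ in depth, so that these values describe the table and no p is given.

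Among the peptide editors, H2-DMa stood at 893 CPM in cDC2, 703 in cDC1, 486 in macrophages and 194 in migratory DC. H2-DMb2 was at 307.5 CPM in cDC2, 133 in cDC1, 120 in migratory DC, 39.8 in macrophages and 36.9 in pDC. Its close relative H2-DMb1 (472, 524, 74.6 and 309 CPM in the first 4 of these) was higher in macrophages than in migratory DC. The H2-O chains departed most from the rest. H2-Oa stood at 128 CPM in cDC2, 79.7 in cDC1, 67.0 in pDC, 66.8 in migratory DC, 9.05 in T/NK cells and 3.47 in macrophages, and its r with Cd74 over the clusters was 0.15. H2-Ob, the other H2-O chain, reached 96.5 CPM in cDC1, 53.7 in cDC2 and 4.20 in macrophages, with r of 0.68. Macrophages held 15.8% of all H2-Oa UMIs and cDC2 58.0%, against 76.9% and 15.1% for Cd74. Ciita, which drives the others, was at 199.6 CPM in cDC2, 186 in cDC1, 68.0 in migratory DC and 63.9 in macrophages.

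Among the 10 macrophage clusters Cd74 ran from 1183 CPM in cluster 15 to 13423 in cluster 2, and H2-Eb1 from 176 to 4251 in the same clusters. Cluster 15 had the lowest level of every member. Cluster 2 had the highest of 8 members, the exceptions being H2-DMb2 (59.9 CPM in cluster 5) and Ciita (153 CPM in cluster 19). Ciita had the widest range of the 9 members detected in all 10 clusters, from 4.18 CPM up. Its lowest level rested on 14 UMIs in the 293 cells of cluster 15. Cluster 19 had a median of 1225 UMIs a cell, the lowest of the macrophage clusters, and 5066 CPM of Cd74.

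T/NK cells make little class II in mice, and the values there turned on 1 cluster. Cluster 12 held 535 of the T/NK cells and 76.6% of their Cd74 UMIs, 13557 of 17691. Macrophage markers summed to 7469 CPM in it, with 9 of 10 at 100 CPM or more, against 113 to 264 CPM and at most 1 of 10 in the other T/NK clusters. Per 1000 Cd74 UMIs cluster 12 held 410 of H2-Aa, 356 of H2-Ab1 and 50.3 of H2-DMa, close to the 405, 326 and 49.2 of macrophages. The other T/NK clusters differed, with 267, 190.4 and 137. H2-Oa behaved otherwise: only 8.24% of its T/NK UMIs were in cluster 12, and the other T/NK clusters held 59.3 per 1000 Cd74 UMIs against 1.62 in cluster 12 and 0.35 in macrophages. In those clusters H2-Oa ran from 3.07 to 37.2 CPM, and only cluster 13 (3.07 CPM from 6 UMIs) lay below the macrophage level. The part of other cells' RNA in these values was not tested.

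Shares of cells showed the same contrast. A Cd74 UMI was seen in 99.8% of cDC1 (median 6575.5 UMIs a cell), 86.9% of macrophages (median 3481) and 27.05% of T/NK cells (median 1945). With each cell thinned to 1000 UMIs the shares were 100%, 79.9% and 16.5%. For H2-Oa the thinned shares were 10.6% in cDC2, 7.49% in cDC1, 0.90% in T/NK cells and 0.29% in macrophages, so that in macrophages it was at or below the share in T/NK cells. Cluster 25, which was given no name although 6 of 6 B cell markers reached 100 CPM, since keratin genes were also among its leading genes, had 5377 CPM of Cd74, 163 of H2-Ob, 82.5 of H2-Oa and 116 of H2-DMb2. Its H2-Ob level was the highest of any cluster.

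In macrophage counts summed over clusters, most class II genes were higher in responder than in non-responder strains. Of the 10 members, 9 differed between the classes, 8 higher and 1 lower in responders (edgeR quasi-likelihood test on UMIs summed per tumor, treatment as a term, adjusted p under 0.05), where 6.40% of the 11646 genes tested differed, 3.90% higher and 2.50% lower. The median log2 difference of the members was 0.60, that of all genes −0.01. The make-up of these sums moved with the class: clusters 2, 5 and 26 held from 65.6% through 73.9% to 82.4% of a responder tumor's macrophages (lowest, median and highest tumor) and from 59.2% through 66.8% to 73.5% of a non-responder tumor's. In these 3 clusters alone 9 members again passed (6.66% of genes), with Cd74 at 0.49 ± 0.13 (adjusted p = 0.0141) and H2-Eb1 at 1.12 ± 0.14 (adjusted p = 9.65e-07), and the part of the make-up within or beyond them was not tested. Each difference below is responder minus non-responder on the log2 scale, with its standard error.

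For Cd74 the 20 responder tumors ran from 7838 CPM through a median of 11120.4 to 18489, and the 18 non-responder tumors from 4015 through 7916 to 14169. All but 1 responder tumor lay above the non-responder median, though the groups overlapped. The difference was 0.55 ± 0.14 (adjusted p = 0.0113).

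Of the members higher in responders, the beta chain H2-Eb1 differed most. Its levels were 2454, 3906 and 7238 CPM (lowest, median, highest) in responder and 804, 1669 and 3104 CPM in non-responder tumors, and 14 of the 20 responder tumors exceeded the highest non-responder value. The difference was 1.21 ± 0.15 (adjusted p = 6.46e-07). H2-Ab1 ran from 2344 through 3929 to 6898 CPM and from 987 through 2218 to 4711 CPM, a difference of 0.72 ± 0.17 (adjusted p = 0.00569). H2-Aa was the least different of the classical chains, at 0.59 ± 0.16 (adjusted p = 0.0194), with medians of 4778 and 3045 CPM.

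Among the editors, H2-DMb1 was higher by 0.62 ± 0.13 (adjusted p = 0.00255; medians 349 and 225 CPM) and H2-DMa by 0.44 ± 0.12 (adjusted p = 0.0244; medians 525 and 403 CPM). H2-Oa and H2-Ob were higher by 1.12 ± 0.24 (adjusted p = 0.00303) and 0.80 ± 0.23 (adjusted p = 0.0257), from medians of 3.72 and 1.97 CPM and of 4.04 and 2.67 CPM. Both H2-O genes were sparse in macrophages, where the thinned share of cells with H2-Oa lay below that of T/NK cells. H2-DMb2 went the other way. It ran from 7.27 through 21.2 to 42.9 CPM in responder and from 23.9 through 52.5 to 127.8 CPM in non-responder tumors, all 18 of the latter above the responder median. Its difference was −1.52 ± 0.21 (adjusted p = 4.38e-06). With H2-DMb1 and H2-DMb2 counted together the sum differed by 0.37 (adjusted p = 0.0728).

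Ciita alone did not pass. Its tumors ran from 34.9 through 81.0 to 137.6 CPM and from 15.4 through 50.6 to 159.9 CPM, and the difference was 0.51 ± 0.23 (adjusted p = 0.187). Without CC080 it was 0.88 (adjusted p = 0.011). The number of calls moved when 1 strain was left out. Without CC002 4 members passed (5.32% of genes), without CC036 5 (6.47%), without CC079 4 (5.03%) and without CC080 10 (7.04%). Without CC001 8 passed (7.69%) and without CC075 9 (6.71%). Each of these fits also held fewer tumors, and the part of that was not tested. With the counts of each strain added into 1 sample none passed, and 3 of 14571 genes did (0.0206%). H2-DMa also fell short with pool as a block (0.41, adjusted p = 0.0629, 8 members and 8.48% of genes called). The 18 tumors of pools 8 to 12 held no CC079, and the 20 of pools 1 to 5 no CC036 or CC075. They gave differences of 0.55 and 0.56 for Cd74, 0.95 and 1.44 for H2-Eb1 and −1.84 and −1.27 for H2-DMb2. Both H2-Eb1 and both H2-DMb2 values passed, where 3.39% and 2.28% of genes did. No other member passed in pools 8 to 12.

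**Figure D2:**
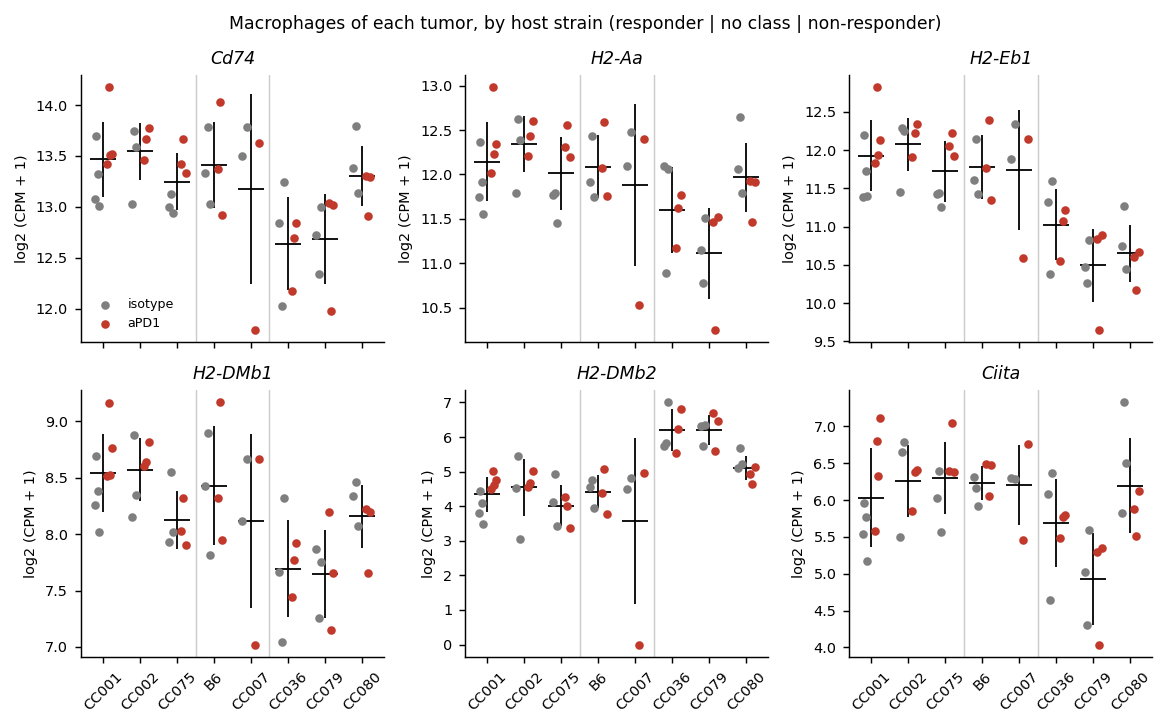
Levels in macrophages as log2 (CPM + 1), each point a tumor (grey isotype, red aPD1), by host strain, with the mean and SD as bars; responder strains are left, B6 and CC007 in the middle and non-responder strains right. CC036 and CC079 sit low for Cd74 and high for H2-DMb2, CC080 sits near the responders for Cd74 and low for H2-Eb1, and the CC007 point at 0 for H2-DMb2 is the tumor of 53 cells.

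The response classes were also compared under each treatment. In aPD1 tumors all 10 responder tumors lay above all 9 non-responder tumors for Cd74, H2-Aa, H2-Ab1 and H2-Eb1, 4 of 10 members, where 0.281% of 12096 genes did so. For Cd74 the 10 responder tumors ran from 10305 to 18489 CPM and the 9 non-responder tumors from 4015 to 10103 CPM. In isotype tumors the same gene ran from 7838 to 13766 and from 4175 to 14169 CPM, and no member separated the classes (0.0248% of genes did). Fitted apart, aPD1 tumors gave 10 of 10 members called, 9 higher (6.34% of genes), and isotype tumors gave H2-DMb2 alone (−1.68, adjusted p = 0.00619, 0.195% of genes). Ciita differed by 1.02 ± 0.23 (adjusted p = 0.0109) in aPD1 tumors and by −0.02 ± 0.34 (adjusted p = 1) in isotype tumors.

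The test of that contrast itself did not pass. The treatment by class term was above 0 for 10 of 10 members, from 0.32 ± 0.22 for H2-DMb1 (adjusted p = 0.59) to 0.97 ± 0.36 for Ciita (adjusted p = 0.368), and 0 of 10 passed, with 1 of 12302 genes called (0.00813%) and 6 members at an unadjusted p under 0.05. With DESeq2 0 members and 6 genes passed.

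Within responder strains a single dose of aPD1 raised no member past the threshold. All 10 were above 0, from 0.23 for H2-DMb2 to 0.65 for H2-Oa, and 8 had an unadjusted p under 0.05, where 0.00847% of 11800 genes passed and 1526 genes had such a p. Cd74 was higher with aPD1 by 0.39 ± 0.12 (adjusted p = 0.242), H2-Aa by 0.50 ± 0.14, H2-Ab1 by 0.50 ± 0.16 and H2-Eb1 by 0.51 ± 0.15 (adjusted p = 0.242 each), and Ciita by 0.61 ± 0.21 (adjusted p = 0.268). DESeq2 called 0 members and 22 genes. Set against the isotype tumor of the same pool and strain, Cd74, the 3 classical chains and H2-Ob were higher in 9 of 10 aPD1 tumors, and Ciita in 8 of 10. For Cd74 these pairs ran from −0.09 through a median of 0.41 to 0.55.

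Non-responder pairs showed no common direction. All 10 members were below 0 in the fit, between −0.35 for Ciita and −0.03 for H2-Ob, with 0 of 10 at an unadjusted p under 0.05 and 0% of 11899 genes called (edgeR; 176 genes at an unadjusted p under 0.05; DESeq2 0). Cd74 was higher with aPD1 in 4 of 9 pairs, from −0.88 through −0.08 to 0.66, and Ciita in 3 of 9. Both classes of pair overlapped for every member.

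**Figure D3:**
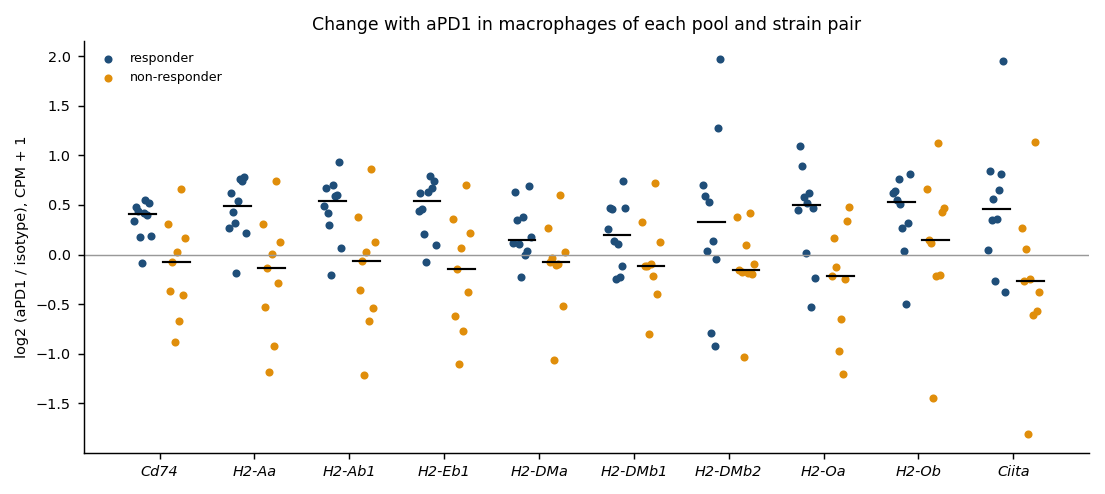
Change with aPD1 in macrophages as log2 of the ratio (CPM + 1) for each pair of tumors of 1 pool and strain, with the median as a bar, for 10 responder (blue) and 9 non-responder (orange) pairs. Responder medians lie above 0 for all 10 genes and non-responder medians below 0 for all but H2-Ob (0.14), with overlapping points throughout.

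The members did not differ between host strains in 1 common way. The test among 8 strains called 10 of 10 members, but also 51.7% of 12510 genes, so that this count says little about the family. With pool as a block it called 9 members and 12.9% of genes, and Cd74 fell short (adjusted p = 0.0528). Set against B6, whose haplotype is the reference, 4 strains had 0 members called. All genes tested gave 16.3% called in CC001 (7.63% higher, 8.67% lower), 5.95% in CC002 (3.21% and 2.73%), 1.14% in CC007 (0.927% and 0.208%) and 4.43% in CC075 (2.79% and 1.64%). The members lay between −0.23 (H2-DMa) and 0.42 (H2-Ob) in CC001, 0.03 (Ciita) and 0.74 (H2-Oa) in CC002, −0.18 (H2-Ab1) and 1.31 (H2-Ob, adjusted p = 0.0654) in CC007, and −0.55 (H2-Ob) and 0.09 (Ciita) in CC075. CC036 had 1 member higher and 5 lower, where 6.25% of genes were called (3.20% higher, 3.05% lower). CC079 had 1 higher and 7 lower, where 26.1% were called (11.9% and 14.2%), and CC080 had 1 lower, where 4.22% were called (2.29% and 1.93%). The B6 tumors are the same in each of these contrasts. Without pool 7, which holds the B6 tumor of 345 cells, the calls were 1 in CC036 (3.43% of genes), 6 in CC079 (33.1%) and 0 in CC080 (5.12%). Of the CC strains only CC007 and CC036 shared a pool with B6, and the others are tied to it through a chain of shared pools. With pool as a block, a fit added after these results were known, 0 members passed against B6 in any strain, and between 0.0231% (CC002) and 1.19% (CC007) of genes did. At an unadjusted p under 0.05 were H2-DMb2 in CC036, CC079 and CC080 and H2-Ob in CC007, CC036 and CC079. The standard errors were larger in that fit: H2-DMb2 in CC036 stood at 1.74 ± 0.45 (adjusted p = 0.0661) and in CC079 at 2.16 ± 0.79 (adjusted p = 1). In CC079 Ciita stood at −1.16 ± 0.96 and Cd74 at −0.86 ± 0.76, and in CC080 H2-Eb1 at −0.76 ± 0.70 (adjusted p = 1 for each). The calls against B6 that follow are from fits without pool. Those in macrophages are lost with pool as a block, and those in dendritic cells or scaled to Cd74 were not fitted with it.

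In CC079 7 members were lower than in B6, Ciita included. Its Ciita level was 31.9 ± 12.5 CPM (SD, n = 6) against 75.1 ± 12.0 in B6 (n = 6), lower by 1.30 ± 0.32 on the log2 scale (adjusted p = 0.00253). No CC079 tumor (15.4 to 47.4 CPM) reached the lowest B6 tumor (59.5 CPM). The share of all genes that separate a strain from B6 in this way was not computed, here or below. Cd74 fell by 0.81 against B6 (adjusted p = 0.0195), from 11305 ± 3454 to 6809 ± 1853 CPM. H2-Aa (−1.02), H2-Ab1 (−1.29), H2-Eb1 (−1.35), H2-DMa (−0.92) and H2-DMb1 (−0.90) were lower as well, with adjusted p between 0.000423 and 0.00633, and H2-Oa (−0.90, adjusted p = 0.0597) and H2-Ob (−0.57, adjusted p = 0.192) did not pass. Summed cDC2 markers in the macrophage counts ran from 22.3 to 43.7 CPM in CC079 tumors and from 30.9 to 104.2 CPM in B6 tumors. Summed cDC1 markers ran from 231 to 326 CPM and from 267 to 378 CPM. The part of other cells in these class II levels was not tested. Of the 23 pathway genes of the lists, 7 passed in CC079, 1 higher and 6 lower, a share near the 26.1% of all genes called in that contrast. Among them Jak1 (−0.47), Jak2 and Irf1 (−1.48), which carry the IFN-γ signal, Ctss (−0.56), the cathepsin that trims the invariant chain, and Cd83 (−1.13) were lower, and Ctsl (0.84) was higher.

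In CC036 the fall was seen in Cd74 (−0.86, adjusted p = 0.0379), H2-Ab1 (−0.91), H2-DMb1 (−0.85), H2-Oa (−1.41) and H2-Ob (−1.23), while Ciita at −0.56 ± 0.32 (adjusted p = 0.319) and H2-Eb1 at −0.83 ± 0.27 (adjusted p = 0.0602) did not pass, nor did H2-DMa (−0.55, adjusted p = 0.0696) and H2-Aa (−0.54, adjusted p = 0.262). CC036 and CC079 shared the opposite value for H2-DMb2. It was 77.8 ± 34.2 CPM in CC036 and 74.9 ± 21.0 in CC079 against 21.4 ± 7.37 in B6 (n = 6 each), higher by 1.81 ± 0.30 (adjusted p = 3.6e-05) and 1.74 ± 0.29 (adjusted p = 3.81e-05). The lowest CC036 and CC079 tumors (45.7 and 47.4 CPM) were above the highest B6 tumor (32.6 CPM), and how many other genes do likewise was not counted. CC080 lay between at 34.4 ± 8.77 CPM (0.65 ± 0.30 above B6, adjusted p = 0.23). Summed cDC2 markers ran from 72.9 to 153.9 CPM in CC036 macrophage counts, above the CC079 range given before. The CC036 isotype tumor of pool 10, highest for H2-DMb2 (127.8 CPM), had 422.8 CPM of summed B cell markers. The aPD1 tumor of that pool and strain (111.7 CPM) had 16.4 CPM. The part of other cells in these levels was not tested.

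The H2-DMb2 to H2-DMb1 ratio set CC036 and CC079 hosts apart within each tumor. Its log2 in macrophages was −1.50 ± 0.35 (SD) in CC036, −1.45 ± 0.13 in CC079 and −3.05 ± 0.21 in CC080, and lay between −4.20 and −4.01 on average in B6, CC001, CC002 and CC075. In CC007 it was −4.54 ± 1.66, and −3.72 ± 0.11 (n = 3) without the tumor of 30 macrophages, whose H2-DMb2 was at 0. The 12 tumors of CC036 and CC079 (−1.94 to −1.11) did not overlap the other 36 (−7.02 to −2.79), and how many other gene pairs do likewise was not counted. In cDC1 the means were −0.98 and −1.33 against −2.78 to −2.08 elsewhere, and in cDC2 −0.27 and −0.05 against −1.30 to −0.68, with tumors of both sides overlapping there. H2-DMb2 itself was above B6 in CC036 cDC1 (1.25 ± 0.28, adjusted p = 0.0235, 0.278% of genes called) and in CC079 cDC2 (0.97 ± 0.20, adjusted p = 0.00143, 5.31% of genes), but did not pass in CC079 cDC1 (0.78, adjusted p = 0.295) or CC036 cDC2 (0.63, adjusted p = 0.124). Since both genes are near copies, a level and a reassignment of reads between them cannot be told apart.

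In CC080 only H2-Eb1 passed against B6. Its macrophages held 1652 ± 451 CPM of H2-Eb1 against 3643 ± 1098 in B6 (−1.17 ± 0.28, adjusted p = 0.007). No CC080 tumor (1152 to 2480.2 CPM) reached the lowest B6 tumor (2597 CPM), and how many other genes do likewise was not counted. Its Cd74 (10272 ± 2183 CPM, −0.17 ± 0.26, adjusted p = 0.77) and Ciita (79.4 ± 42.2 CPM, 0.07 ± 0.31, adjusted p = 0.949) did not pass, and the other 7 members lay between −0.87 (H2-Oa) and 0.65 (H2-DMb2). In cDC1 H2-Eb1 was 3625 ± 389 CPM in CC080 (n = 6) and 6337 ± 1396 in B6 (n = 4), lower by 0.80 ± 0.13 (adjusted p = 7.8e-05, 0.516% of genes called). In cDC2 it was 3980.4 ± 480 and 7410.3 ± 1336 CPM (n = 6 each), lower by 0.85 ± 0.12 (adjusted p = 9.3e-06, 1.15% of genes).

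Taken as a ratio to Cd74 in the same cells, H2-Eb1 placed every CC080 tumor apart from every tumor of the other strains in 3 cell classes. The share of all genes or ratios that set a strain apart in this way was not computed. The log2 ratio in CC080 was −2.74 to −2.51 in macrophages against −2.32 to −1.20 in the other 42 tumors. It was −2.54 to −2.36 in cDC1 against −1.70 to −1.05 (33 tumors), and −2.51 to −2.31 in cDC2 against −1.60 to −1.07 (41 tumors). In migratory DC the ranges overlapped (−2.48 to −1.96 against −2.54 to −0.62). Scaled to Cd74, CC080 differed from B6 in H2-Eb1 by −1.02 ± 0.17 (adjusted p = 3.35e-05) in macrophages, −1.06 ± 0.11 (adjusted p = 3.59e-09) in cDC1 and −1.14 ± 0.09 (adjusted p = 7e-14) in cDC2, where 1.31%, 0.576% and 2.49% of genes passed. The log2 ratio of H2-Eb1 to H2-Aa, the chain next to it on the chromosome in this family, was −1.32 ± 0.04 (SD) in CC080 macrophages and −0.77 to 0.06 in the other 42 tumors. In migratory DC that ratio did not overlap either, at −1.60 to −1.06 in CC080 against −0.88 to −0.11 in 38 tumors. CC079 was next lowest for H2-Eb1 to Cd74 in macrophages, at −2.19 ± 0.09, which was −0.56 from B6 (adjusted p = 0.00472). In that contrast 64.7% of 12509 genes passed, 7912 higher and 181 lower, and the median of all genes was 0.80. How much of these ratios comes from reads of the CC haplotype that failed to align was not tested.

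**Figure D4:**
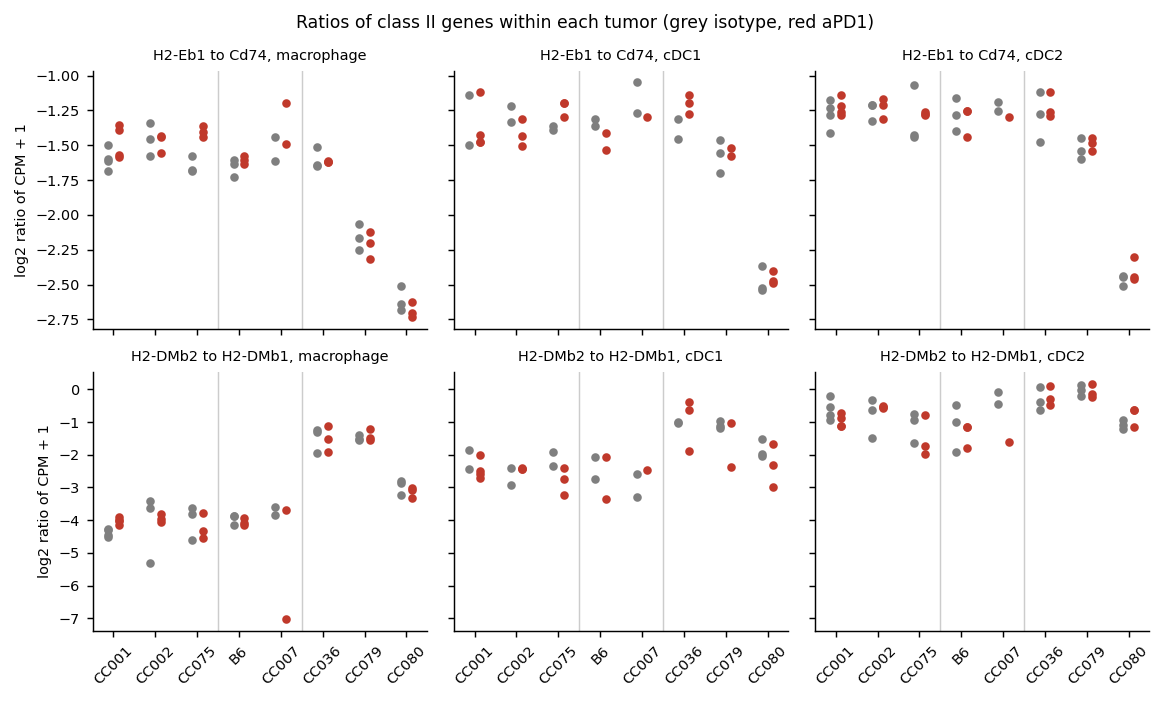
Log2 ratio of (CPM + 1) for H2-Eb1 to Cd74 (top) and H2-DMb2 to H2-DMb1 (bottom) in macrophages, cDC1 and cDC2, each point a tumor (grey isotype, red aPD1), by host strain. CC080 stands below all other tumors in the 3 upper panels, and CC036 and CC079 stand above the other strains in the lower left panel, whose point at −7.02 is the CC007 tumor of 53 cells.

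Scaled to Cd74, the class difference in macrophages was 0.58 ± 0.12 for H2-Eb1 (adjusted p = 0.000221), 0.47 ± 0.20 for H2-Oa (adjusted p = 0.0273) and −2.23 ± 0.22 for H2-DMb2 (adjusted p = 7.24e-11). The other 6 members lay between −0.17 for H2-DMa and 0.21 for H2-Ob, with Ciita at 0.02 ± 0.15 (adjusted p = 0.907) and H2-Aa at 0.04 ± 0.10 (adjusted p = 0.728). With pool as a block H2-Oa fell short (0.42 ± 0.22, adjusted p = 0.0724). On this scale 89.4% of 11645 genes passed, 88.8% lower and 0.532% higher, and the median of all genes was −0.66.

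Fewer members passed in dendritic cells. In cDC1 9 of 10 members had an unadjusted p under 0.05, and 9 lay above 0, with a median of 0.36 over the members. Of the 10, 3 passed, all higher in responders, where 0.606% of 3798 genes passed. They were H2-Eb1 (0.59 ± 0.10, adjusted p = 0.000754), H2-DMb1 (0.52 ± 0.09, adjusted p = 0.000546) and H2-DMa (0.35 ± 0.08, adjusted p = 0.033). For H2-DMb1 the 16 responder tumors ran from 491 through 619.8 to 799.6 CPM and the 16 non-responder tumors from 282 through 462 to 628 CPM. Cd74 in cDC1 ran from 17236 through 19690.2 to 23230 CPM and from 12875 through 18199 to 21561 CPM, a difference of 0.16 ± 0.06 (adjusted p = 0.382), and the other 6 members lay between −0.47 (H2-DMb2) and 0.57 (H2-Oa). In cDC2 0 of 10 members passed (0.630% of 6665 genes; 5 members at an unadjusted p under 0.05), Cd74 was at −0.09 ± 0.08, and the others lay between −0.31 (H2-DMb2) and 0.74 (H2-Oa). With pool as a block Cd74 passed there, lower in responders (−0.21 ± 0.05, adjusted p = 0.0169), and in cDC1 H2-DMa no longer did (0.30 ± 0.08, adjusted p = 0.0976). In migratory DC 0 of 9 members tested passed (0.417% of 2398 genes; 1 at an unadjusted p under 0.05), from −0.26 for Cd74 to 0.19 for H2-Oa, and H2-Ob was too low to be tested. In T/NK cells 5 members were high enough to be tested and 0 passed (3.48% of 6414 genes, 1.40% higher and 2.07% lower; 0 at an unadjusted p under 0.05), from −0.18 for H2-DMa to 0.47 for H2-Eb1. None passed without cluster 12 (3.56% of 6075 genes), nor of the 6 tested with cluster 24 added after the results were known (2.21% of 6908 genes; H2-Eb1 alone at an unadjusted p under 0.05).

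**Figure D5:**
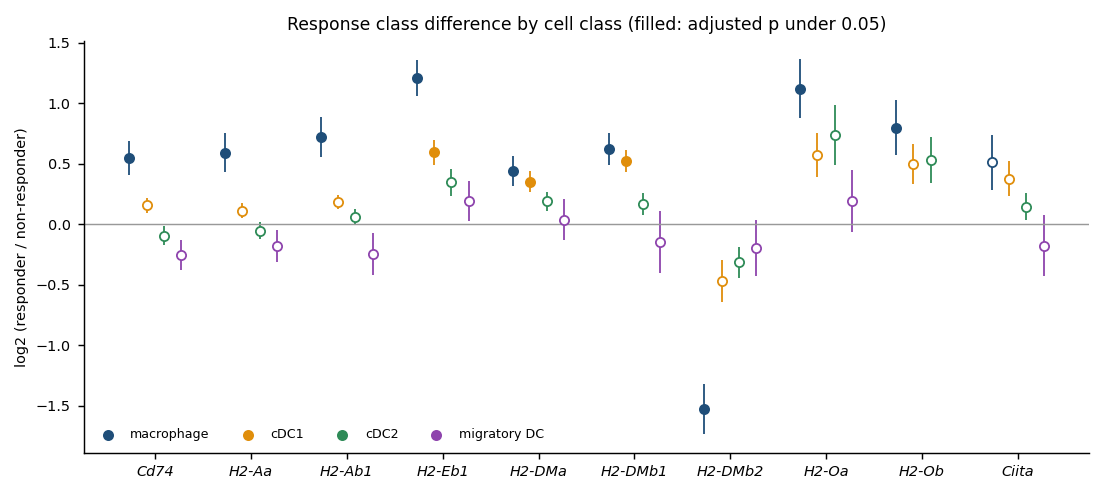
Log2 difference between responder and non-responder strains for each gene in macrophages, cDC1, cDC2 and migratory DC, with the standard error as a bar and filled points for an adjusted p under 0.05. Macrophage points lie furthest from 0 for all 10 genes, and H2-Ob is missing for migratory DC because it was too low to be tested.

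A fit over macrophages and each DC class together, with the tumor as a block, tested whether the class difference was larger in macrophages; it was added after the separate results were known. Against cDC1, cDC2 and migratory DC alike 5 of 10 members passed: Cd74, H2-Aa, H2-Ab1 and H2-Eb1 higher and H2-DMb2 lower, where 0.275%, 0.120% and 0.126% of genes passed. For Cd74 the macrophage difference exceeded that in cDC1 by 0.47 ± 0.11 (adjusted p = 0.0447), in cDC2 by 0.71 ± 0.14 (adjusted p = 0.00776) and in migratory DC by 0.90 ± 0.15 (adjusted p = 0.00072). With libraries scaled by size alone only H2-DMb2 passed against cDC1. For Ciita the term against cDC1 was 0.16 ± 0.18 (adjusted p = 0.92).

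Class II transcript in macrophages was set against the Ifng level of the tumor, with strain as a term. Ifng, the gene of IFN-γ, ran from 0 through a median of 36.5 to 698 CPM over all cells of a tumor, and 1 tumor of 48 was at 0. Over all 48 tumors 7 of 10 members rose with it, where 13.4% of 12690 genes changed and 7.17% rose. Per doubling of Ifng, H2-Aa rose by 0.18 ± 0.04 on the log2 scale (adjusted p = 0.00442), Ciita by 0.21 ± 0.06 (adjusted p = 0.0116), H2-Oa by 0.24 ± 0.07 (adjusted p = 0.0259) and Cd74 by 0.15 ± 0.04 (adjusted p = 0.0192). H2-Ab1 and H2-Eb1 rose by 0.16 each, and H2-DMa by 0.10. H2-DMb1 (0.06), H2-Ob (0.10) and H2-DMb2 (0.03) did not pass.

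The calls on that slope changed with the tumors and cells used. The part of the smaller number of tumors in this was not tested. In isotype tumors alone 0 members passed (7.61% of genes), and in aPD1 tumors alone 0 (0% of genes). With the Ifng of T/NK cells alone 4 passed (0.576% of genes), and likewise 4 with cluster 24 counted among them (0.715%). In pools 1 to 6 alone 9 members passed (11.6% of genes), with Cd74 at 0.25 and Ciita at 0.36, whereas in pools 7 to 12 none did (7.51% of genes), with Cd74 at −0.02 and Ciita at 0.12. Without the tumors of under 500 cells 3 members passed (14.3% of genes), and Cd74 was at 0.10 (adjusted p = 0.16). With pool and strain pairs as blocks 5 passed (12.0% of genes), H2-Oa (adjusted p = 0.0509) and H2-DMa (adjusted p = 0.0978) no longer among them. The highest Ifng level, 698 CPM, was in a CC002 isotype tumor of 248 cells. Over all tumors 6 of the 23 pathway genes rose with Ifng, beside the share of all genes that rose given above. Among the 6 were Jak1 (0.09) and Irf1 (0.28) of the IFN-γ signal and Rfx5 (0.16), a part of the promoter complex with Ciita. Ctss (0.09) and March1 (0.11), which removes class II from the surface, were others. Their slopes in the parts of the tumors named above are not given.

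Of 23 genes in lists for the promoter complex, IFN-γ signalling, endosomal processing, surface turnover and other class II region genes, 22 were tested in macrophages between response classes and 1 passed, no larger a share than the 6.40% of all genes. It was Ctss, higher by 0.28 ± 0.07 (adjusted p = 0.0145). The IFN-γ signal gene Irf1 (0.40, adjusted p = 0.334) and the promoter factor Rfx5 (0.19, adjusted p = 0.455) did not. In responders and non-responders with aPD1, 0 of 22 passed. Markers of other cells were looked for in the macrophage counts. The 7 cDC1 markers summed to 252 to 488 CPM (median 381) in responder and 218 to 432 CPM (median 292) in non-responder tumors, and the 6 cDC2 markers to 12.1 to 114 (median 35.8) and 22.3 to 185 CPM (median 68.8), with no marker of either list at 0 in all tumors. Clec9a (1.43), Irf8 (0.33) and Cadm1 (0.83) of the cDC1 list were higher in responder macrophages. Ccl22 (1.53) of the migratory DC list and Ccr9 (0.59) of the pDC list were higher as well. The 3 migratory DC markers tested had a median log2 difference of −0.0999, and the 4 pDC markers tested one of 0.071. The 7 migratory DC markers summed to 9.42 to 50.86 CPM (median 15.1) in responder and 11.97 to 35.65 CPM (median 17.8) in non-responder tumors. Cdh1 (−1.09) of the tumor cell list was lower. The 7 markers of that list summed to 4.57 to 37.1 CPM (median 11.9) in responder and 14.2 to 67.2 CPM (median 29.9) in non-responder tumors. Of the 10 macrophage markers Fcgr1 (0.37) and C1qb (0.46) were higher and Mrc1 (−0.58) lower. The 10 T/NK markers summed to 3.18 to 59.5 CPM (median 9.20) in responder and 2.89 to 32.0 CPM (median 6.32) in non-responder tumors, against 1880 CPM or more in each T/NK cluster. Of these markers 3 were tested between the classes and 0 passed (median log2 difference 0.75). With aPD1 the 4 tested in responder strains had a median of 0.85, the 3 in non-responder strains −0.78 and the 6 in the treatment by class term 1.59, again with 0 called. Each of these T/NK marker medians has the sign of the class II genes' own in that comparison. In aPD1 tumors the T/NK marker sums ran from 5.00 through 10.1 to 59.5 CPM in responder and from 2.89 through 5.37 to 9.08 CPM in non-responder tumors, and in isotype tumors from 3.18 through 6.50 to 16.3 and from 4.99 through 7.50 to 32.0 CPM. Every one of these sums overlapped between the classes, and the part of other cells in the macrophage levels was not tested.

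The genes whose level was most like that of Cd74 over the 27 clusters were Fgd2, Gm6377, Ctsh, Rassf4, Ly86 and Ifi30 (r between 0.945 and 0.956), of which Ctsh is a cathepsin and Ifi30 a thiol reductase of the endosome. Within macrophages, over the 48 tumors with strain means removed, Ly6i (r = 0.84), C3 (0.82), Cdk2ap2 (0.81), Prdx5 (0.81), Pdcd1lg2 (0.79) and Mkrn1 (0.79) were most like the mean of Cd74 and Ciita. Among the members H2-Ab1 (0.95), H2-Aa (0.94), H2-Eb1 (0.93) and H2-DMa (0.91) were closer still, and H2-Ob (0.41) was furthest. The tumors of a library share its depth and handling, so that these values are descriptions with no p.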

How the data were processed

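Cells of 48 tumors were sequenced in 12 droplet libraries of 4 tumors, told apart by hashing antibodies. The authors aligned reads to GRCm38 with Cell Ranger, removed cells high in mitochondrial or ribosomal transcripts, clustered the rest with Seurat 5.0.1 after correction for processing date, and deposited raw UMI counts per gene and cell with each cell's tumor and cluster. How multi-mapping reads were handled is not given in the sources used here.

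Counts were summed per tumor and cell class, for tumors with 10 or more cells of the class, and compared with edgeR 4.0.16 in R 4.3.3 (TMM scaling, filterByExpr, quasi-likelihood test, Benjamini-Hochberg adjustment over all genes tested, threshold 0.05). DESeq2 1.42.0 served as an alternative. Summaries were made with Python 3.11.15, pandas 2.3.3 and scipy 1.17.1. Response class is the study's. Each tumor was 1 replicate; the p-values do not cover the choice of strains, of which there were 3 in each class. The class contrasts in macrophages, cDC1, cDC2, migratory DC and T/NK cells were tested on simulated counts. So were the Ifng slope, aPD1 in responder strains and the treatment by class term, and the other fits were not. The simulated counts held no strain, pool or pair effect, so they cannot show how such effects bear on the p-values.

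Clusters were named where at least 3 markers, and 50% of a list, reached 100 CPM and the leading genes did not go against the name, a rule settled after the values were seen; doublets were not called here. The 10 members are given in each comparison by value or by the range of those not named, of the pathway genes the counts and those that passed between response classes, and the 6 genes of 10 CPM or more most like the members; pathway genes named in CC079 and with Ifng were named after their values were seen, and 1 pathway gene is not reported here by name. The members and lists were chosen with earlier results of these data known.

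Pool numbers mark a shared library and so pair the tumors. Deviations of the isotype and aPD1 tumors of 1 pool and strain correlated at a median of 0.28 (−0.29 to 0.64 over 24 pairs and 7880 genes), above 0.1 in 19. A UMI count per tumor carries counting error, largest where few macrophages were captured.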

Additional observations from a re-analysis of the deposited data

Results flagged for a closer look

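In macrophages, each member was looked at in the 4 groups of response class and treatment for a tumor far from the rest, and 5 of 40 groups held such a tumor. Chance flags about 5% of independent groups, but the members were measured in the same tumors and moved together, so the count is not set against that share. All 5 came from 2 aPD1 tumors of pool 2. The CC001 tumor of that pool was the highest responder tumor for Cd74 (18489 CPM, next 14040 CPM) and for H2-Eb1 (7238 CPM, next 5200 CPM). The CC079 tumor of the same pool was the lowest non-responder tumor for Ciita (15.4 CPM, next 38.2 CPM), H2-Aa (1217 CPM, next 2311 CPM) and H2-Ab1 (987 CPM, next 1768 CPM).

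The class difference was tested between macrophages and each DC class in a fit chosen after the data were seen, with the tumor as a block. Given as the macrophage difference minus the DC difference on the log2 scale, 5 members passed in edgeR's quasi-likelihood test against each class. Against cDC1 the values were 0.47 for Cd74 (adjusted p = 0.0447), 0.59 for H2-Aa (0.0333), 0.63 for H2-Ab1 (0.0289), 0.66 for H2-Eb1 (0.0195) and −0.91 for H2-DMb2 (0.00831). Against cDC2 they were 0.71 for Cd74 (adjusted p = 0.00776), 0.73 for H2-Aa (0.024), 0.74 for H2-Ab1 (0.0208), 0.87 for H2-Eb1 (0.00776) and −1.13 for H2-DMb2 (0.00173). Against migratory DC they were 0.90 for Cd74 (adjusted p = 0.00072), 0.91 for H2-Aa (0.0021), 1.13 for H2-Ab1 (0.00168), 1.12 for H2-Eb1 (0.00104) and −1.18 for H2-DMb2 (0.00639).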

How the results depend on the processing

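The counts of members called moved with the tumors used and with how their counts were summed, and the cause was not tested. Where the text gives no share of all genes called for a count below, a change of the family alone cannot be read from it. For the response class in macrophages, 9 of 10 passed in all tumors, 3 in pools 1 to 5, 2 in pools 8 to 12, 1 in isotype tumors, 0 with counts summed per strain, and between 4 and 10 with 1 strain left out. It stayed at 9 without tumors of under 500 cells, without the 2 CC080 tumors of 1 animal identifier, and with DESeq2. Among 8 strains 4 passed in isotype tumors. Against B6, 15 calls over 7 strains became 5 in isotype tumors, 6 in aPD1 tumors and 7 to 16 with 1 pool left out. Scaled to Cd74, 1 passed in isotype tumors. For the slope on Ifng, 7 became 4 with no filter on low counts, 4 with the Ifng of T/NK cells alone and 4 with cluster 24 added to them, 3 without tumors of under 500 cells and 0 in isotype tumors, in aPD1 tumors or in pools 7 to 12. With size scaling alone 1 member passed for macrophages against cDC1.

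Of the values that turned in sign, the slope of H2-DMb2 on Ifng with no strain term was called (adjusted p = 0.00937, edgeR) and the others were not. Ciita between classes was −0.0238 in isotype tumors. The slope on Ifng in pools 7 to 12 was −0.0167 for H2-DMa, −0.106 for H2-DMb1, −0.151 for H2-DMb2, −0.136 for H2-Ob and −0.0228 for Cd74. In isotype tumors it was −0.0526 for H2-DMb1 and −0.100 for H2-DMb2, and with no strain term −0.198 for H2-DMb2. Scaled to Cd74, isotype tumors gave −0.0546 for H2-Aa and −0.156 for Ciita, and H2-DMb1 was −0.0566 in aPD1 tumors and −0.0107 scaled by Ciita.

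The replicate block on pool, or on pool and strain pairs, left 8 of 10 members called between classes in macrophages and 9 among strains. It left 2 scaled to Cd74, 2 in cDC1, 1 in cDC2 and 5 for Ifng. For aPD1 in either class and for the treatment by class term it left 0. The shares of all genes called with the block are not given for the Cd74-scaled, cDC1 and cDC2 fits, so these counts are not set against them. Against B6 the block on pool, added after the data were seen, took the 15 calls over 7 strains to 0. DESeq2 was not run on the fits over 2 cell classes. H2-Oa and H2-Ob in macrophages are limited by depth.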
